A study of Mus musculus with 9 samples.

Results

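Voltage-gated sodium and calcium channels carry the currents that make neurons fire and release transmitter. The members described here are genes for their subunits that had a probe set of their own, found by symbol: Scn genes with a number and the letter a or b, and genes whose symbol starts with Cacna, Cacnb or Cacng. The set was proposed with earlier results of these data known. The rule found 35 genes among 19938 genes with a probe set of their own. They covered 8 of 10 listed sodium pore genes, 3 of 4 sodium beta genes, 3 of 4 calcium beta genes, 7 of 8 gamma genes and all listed genes of the other calcium channel families. The remaining subunit genes were not analysed here, and any order within a family covers only its analysed members. Where a gene had several probe sets, the brightest on average stood for it. Of the 35 genes, 33 were tested, as 16323 of all genes were. Scn7a and Scn10a were too dim for the test: they lay above their array's 25th percentile on 0 and 1 of the 9 arrays, and the test asked for 3.

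A sodium channel is built from a large pore-forming alpha subunit, encoded by a numbered Scn gene ending in a, and from small beta subunits with a single membrane span, encoded by the Scn genes ending in b. A calcium channel has a Cacna1 pore subunit, an intracellular beta subunit (Cacnb) and an extracellular alpha2delta subunit (Cacna2d). Several Cacng products are transmembrane AMPA receptor regulatory proteins (TARPs), which chiefly traffic glutamate receptors. As neurons mature, the set of subunits they use changes: Scn3a is known as an embryonic and neonatal form, and Scn1a rises after birth.

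The study compared 3 tissues of mice aged 13 days, with 3 samples each and 9 in all: Ptch1 KO medulloblastoma (a tumour of the cerebellum), Sufu KO cerebellum and wildtype cerebellum. Ptch1 and Sufu both restrain the Hedgehog pathway, which drives the division of granule neuron progenitors. Total RNA was read on Affymetrix Mouse Gene 1.0 ST arrays, 1 per sample, and the values are on the log2 scale. The sources used here give no strain, no Cre driver or deleted exon, and no number of animals. The p-values therefore reflect only how far these samples spread, and part of that may be technical. Only 3 arrays per group limit the precision.

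The array medians lay between 6.72 and 6.79. The deleted genes were read first. Ptch1 read 11.17 to 11.43 in the tumours, 10.16 to 10.25 in Sufu KO and 10.25 to 10.28 in wildtype, so it was higher in the tissue labelled Ptch1 KO. Its probe sets need not lie in the deleted part, which the labels do not give, so this level does not check the label. Sufu read 9.81 to 9.92 in the tumours, 7.99 to 8.14 in Sufu KO and 8.82 to 9.03 in wildtype, so it was lowest in Sufu KO. Gli1, a target of the pathway, read 8.86 to 9.42 in the tumours, 7.23 to 7.27 in Sufu KO and 7.28 to 7.52 in wildtype. Tumour replicate 3 stood nearest to wildtype among the tumours, with a mean correlation across genes with the wildtype arrays of 0.943, against 0.915 and 0.918 for the others. Xist was high on all wildtype arrays and on a single array of each mutant group, so the groups were not matched for it.

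Most channel subunit genes that differed in the tumours were lower there. Against wildtype, 24 of the 33 tested members were called, meaning an adjusted p under 0.05 in limma, as were 46.8% of all tested genes. Of the members 21 were lower and 3 higher, and of all genes 24.7% were lower and 22.1% higher. The median log2 difference of the members was -0.54, and that of all tested genes was -0.01. By at least 1 log2 unit, 9 members were lower, as were 4.02% of all genes. They were Scn1a, Scn2a, Scn2b, Scn4b, Cacna1a, Cacna1g, Cacna1i, Cacna2d2 and Cacnb4.

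In Sufu KO cerebellum the shifts were smaller and fewer. There 14 members were called, as were 25.4% of all genes. Of these 12 were lower than wildtype and 2 higher, against 12.4% and 13% of all genes, with a median log2 difference of -0.13 for the members and -0.01 for all genes. None of the 12 reached 1 log2 unit, which 0.221% of all genes did. Set directly against Sufu KO, the tumours had 22 members called, as were 29.7% of all genes. Lower were 19 and higher 3, against 17.5% and 12.2% of all genes, with medians of -0.35 for the members and -0.01 for all genes. Lower by at least 1 log2 unit were 5 members, Scn1a, Scn2b, Cacna1g, Cacna2d2 and Cacnb4, and 1.13% of all genes. This last comparison is the direct test between the mutant groups. It sets tumour against cerebellum as well as Ptch1 KO against Sufu KO, so genotype and tissue cannot be told apart in it.

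**Figure D1:**
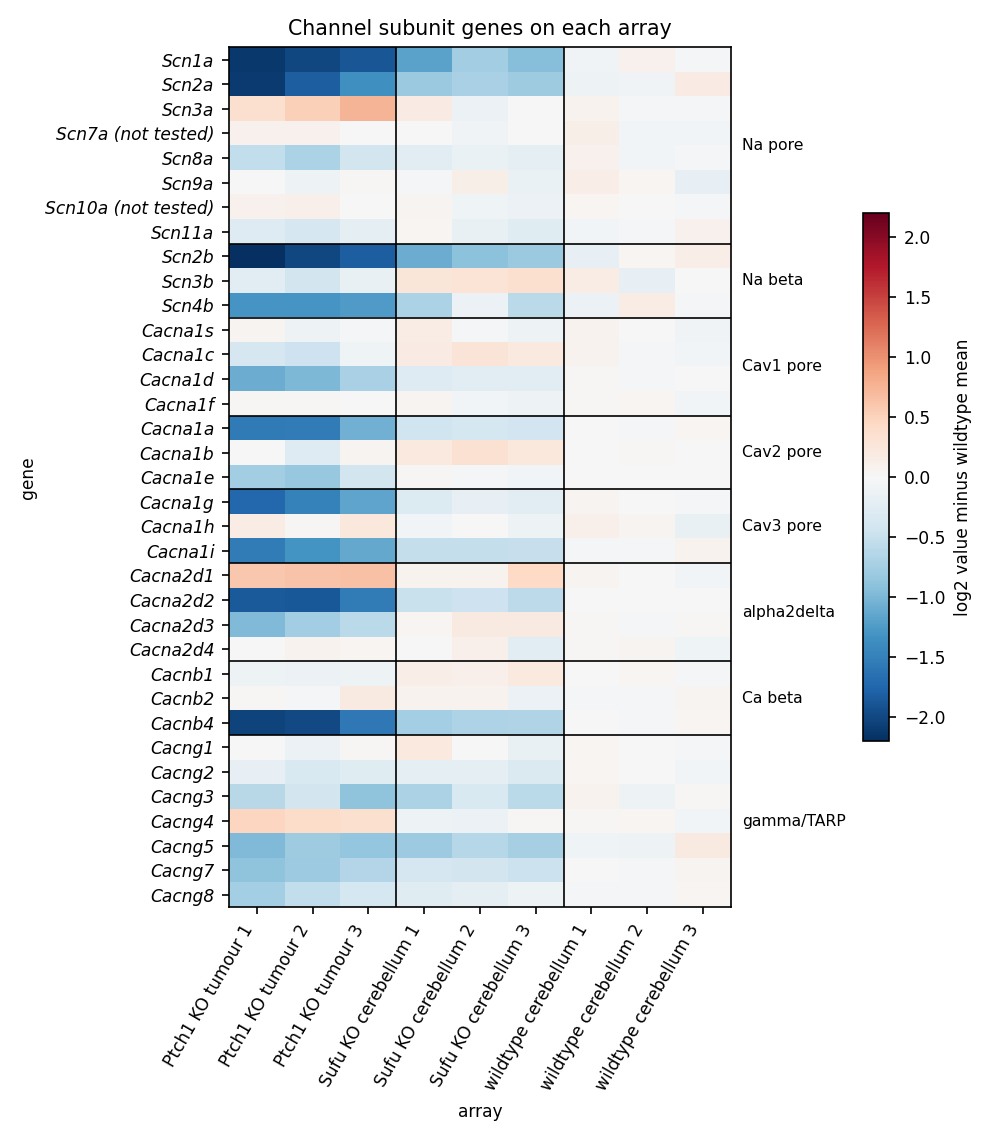
Log2 value of each of the 35 channel subunit genes (rows, by role) on each of the 9 arrays (columns), minus the mean of the 3 wildtype arrays; blue is lower and red higher. Scn1a, Scn2a, Scn2b, Cacna2d2 and Cacnb4 are darkest in the tumours and paler in Sufu KO, and Scn3a, Cacna2d1 and Cacng4 are red in the tumours.

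The start regions of 4 members are shown because these genes mark the extremes of the set: Scn2b and Scn1a had the largest falls in the tumours, and Cacna2d2 and Cacna2d1 are alpha2delta genes that moved in opposite directions. Each sequence runs from 250 bases before to 50 bases after a transcription start in RefSeq (GRCm38.p6), is written in the direction of the gene, and has each CG pair in capitals.
Scn2b (chr9:45117626-45117925, plus strand): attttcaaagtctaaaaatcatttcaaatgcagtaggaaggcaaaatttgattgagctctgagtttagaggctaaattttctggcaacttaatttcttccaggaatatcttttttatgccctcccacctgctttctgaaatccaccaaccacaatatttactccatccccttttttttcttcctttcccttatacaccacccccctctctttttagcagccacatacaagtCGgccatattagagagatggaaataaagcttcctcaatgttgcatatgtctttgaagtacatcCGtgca
Scn1a (chr2:66440788-66441087, minus strand): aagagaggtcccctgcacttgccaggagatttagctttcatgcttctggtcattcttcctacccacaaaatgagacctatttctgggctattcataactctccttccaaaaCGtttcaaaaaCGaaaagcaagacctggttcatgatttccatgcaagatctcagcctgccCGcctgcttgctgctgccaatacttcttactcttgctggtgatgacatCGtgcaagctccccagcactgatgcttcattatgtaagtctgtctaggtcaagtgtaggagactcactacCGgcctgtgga
Cacna2d2 (chr9:107399630-107399929, plus strand): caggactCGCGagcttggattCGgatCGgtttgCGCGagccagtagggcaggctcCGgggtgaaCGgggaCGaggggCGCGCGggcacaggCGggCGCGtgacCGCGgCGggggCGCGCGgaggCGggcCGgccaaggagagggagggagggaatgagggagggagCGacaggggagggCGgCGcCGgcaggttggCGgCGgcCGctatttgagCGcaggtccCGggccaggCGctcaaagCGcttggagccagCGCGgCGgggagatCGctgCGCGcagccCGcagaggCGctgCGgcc
Cacna2d1 (chr5:15934441-15934740, plus strand): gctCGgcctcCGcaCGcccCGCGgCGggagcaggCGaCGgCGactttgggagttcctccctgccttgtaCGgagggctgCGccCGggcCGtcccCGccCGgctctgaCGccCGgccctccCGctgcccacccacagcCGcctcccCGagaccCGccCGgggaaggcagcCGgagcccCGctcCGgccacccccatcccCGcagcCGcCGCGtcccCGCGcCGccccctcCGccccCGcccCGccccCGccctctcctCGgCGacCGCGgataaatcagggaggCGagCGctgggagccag

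The Scn2b and Scn1a windows hold 2 and 5 CG pairs, with 38.3% and 47.3% G or C, while those of Cacna2d2 and Cacna2d1 hold 43 and 42, with 75.7% and 80.0%. The median over all 32851 RefSeq windows is 7 CG pairs. The genes that fell furthest included both CG-poor and CG-rich starts, and the alpha2delta genes that went opposite ways have starts of a like composition. RefSeq gave 37 windows for 27 of the 35 members. On either strand, the consensus letters of the Gli factors, GACCACCCA, occurred in 1 of these 37 windows, a Cacnb4 window, and in 0.253% of all windows. GGGCGG, the GC box, occurred in 14 of the 37 windows and in 35.7% of all windows.

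Among the analysed sodium channel pore genes, Scn1a and Scn2a fell furthest in the tumours. Scn1a encodes Nav1.1, the channel of fast-firing inhibitory neurons and Purkinje cells. It read 6.62, 6.75 and 6.86 in the tumours, 7.57, 7.99 and 7.81 in Sufu KO and 8.67, 8.84 and 8.72 in wildtype. The groups lay in 3 separate steps, with the tumours lowest and wildtype highest. Scn1a was lower in the tumours than in wildtype (log2 difference -2.00 ± 0.10, SE, limma adjusted p = 2.84e-08). It was 1.94-fold lower in Sufu KO than in wildtype (adjusted p = 4.52e-05) and 2.06-fold lower in the tumours than in Sufu KO (adjusted p = 2.60e-05).

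Scn2a encodes Nav1.2, a channel of axons of developing and granule neurons. Its probe set read 9.84, 10.12 and 10.59 in the tumours, 11.12, 11.22 and 11.15 in Sufu KO and 11.83, 11.87 and 12.13 in wildtype. Again no group overlapped another, and the tumours were the most spread. The log2 difference was -1.76 ± 0.15 (SE, adjusted p = 1.13e-06) in the tumours against wildtype and -0.78 ± 0.15 (adjusted p = 0.00246) in Sufu KO against wildtype. Between the mutants it was -0.98 ± 0.15 (adjusted p = 0.000372).

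Scn2a is the member with the most probe sets, 14 in all, which read different stretches of the gene and so share their RNA. All 14 were called lower in the tumours against wildtype, with log2 differences from -2.16 to -1.68, and all 14 were lower in Sufu KO against wildtype, from -1.07 to -0.67. Every probe set showed the tumours below Sufu KO and Sufu KO below wildtype with no overlap.

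**Figure D2:**
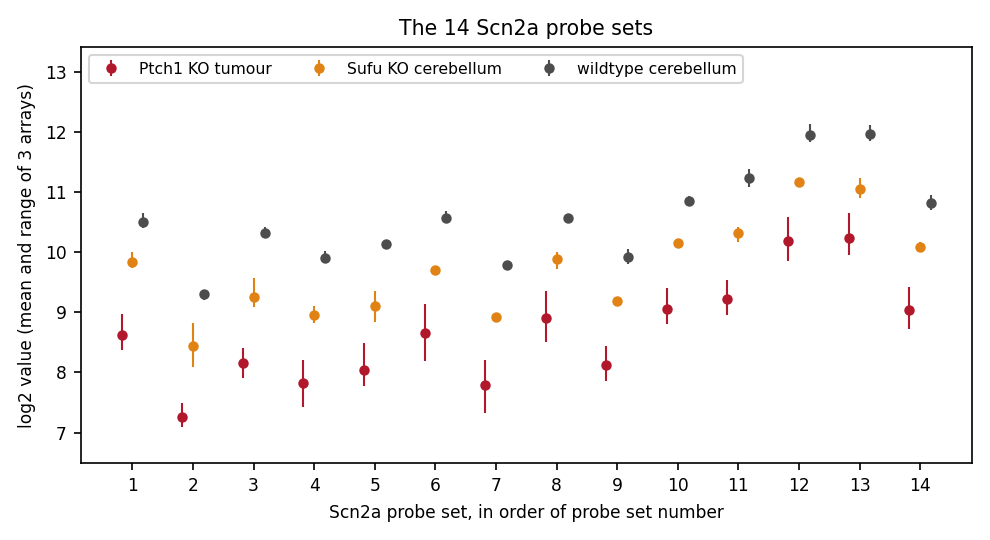
Log2 value of the 14 Scn2a probe sets (x axis, in order of probe set number) in Ptch1 KO tumours, Sufu KO and wildtype cerebellum; points are means and bars the range of 3 arrays. On each probe set the tumours are lowest, Sufu KO lies between, and wildtype is highest.

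Scn8a encodes Nav1.6, the main channel of the mature axon initial segment and nodes of Ranvier. Its values were 9.43, 9.28 and 9.57 in the tumours, 9.72, 9.82 and 9.78 in Sufu KO and 10.06, 9.91 and 9.94 in wildtype. The steps were in the same order as for Scn1a but shallow. Scn8a was 1.46-fold lower in the tumours than in wildtype (adjusted p = 0.000125) and 1.27-fold lower than in Sufu KO (adjusted p = 0.00636). In Sufu KO against wildtype the log2 difference was -0.20 (95% confidence interval -0.37 to -0.02, adjusted p = 0.101).

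Scn3a, the embryonic and neonatal form Nav1.3, was the sodium channel gene that rose in the tumours. It read 5.67, 5.84 and 6.06 in the tumours, 5.49, 5.18 and 5.30 in Sufu KO and 5.38, 5.29 and 5.27 in wildtype. All tumour arrays stood above the others, while Sufu KO and wildtype overlapped. The log2 difference was 0.54 ± 0.10 against wildtype (SE, adjusted p = 0.000790) and 0.53 ± 0.10 against Sufu KO (adjusted p = 0.00186). Scn3a is dim: it lay above its array's 25th percentile on 3 tumour, 1 Sufu KO and 0 wildtype arrays, so it entered the test through the group where it is high. Its values in Sufu KO and wildtype cannot be told from background, so these differences may be understated. With no filter on dim genes it was also called in both comparisons. Scn3a and Scn2a are next to each other in the RefSeq gene order, and their tumour differences had opposite signs. Probe sets shared by Scn3a and other sodium channel genes did not rise in the tumours against wildtype. They gave -0.94 (with Scn2a and Scn9a), -1.77 (with Scn9a) and -0.10 (with Scn1a).

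The remaining pore genes, Scn7a, Scn9a, Scn10a and Scn11a, are known mainly from sensory neurons or glia outside the brain. They were dim here, and of these only Scn11a was called, at -0.29 in the tumours against wildtype (adjusted p = 0.0145). That call ended without tumour replicate 2 (adjusted p = 0.0640) or wildtype replicate 3 (adjusted p = 0.0621). Scn7a read at most 4.40 and Scn10a at most 5.37 on any array. The brighter Scn9a probe set differed by at most 0.03 log2 units in size in any comparison, and its other probe set by at most 0.07.

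The sodium channel beta genes split. Scn2b, whose product is bound to alpha subunits by a disulfide bond and raises their surface number, read 7.26, 7.55 and 7.73 in the tumours, 8.46, 8.65 and 8.73 in Sufu KO and 9.36, 9.59 and 9.70 in wildtype. It showed the same 3 clear steps as Scn1a. Its 4.10-fold fall in the tumours against wildtype was the largest of any member (log2 difference -2.03 ± 0.12, SE, adjusted p = 8.26e-08). In Sufu KO it was 1.91-fold below wildtype (adjusted p = 0.000192), and in the tumours 2.14-fold below Sufu KO (adjusted p = 5.26e-05).

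Scn4b, the beta subunit linked to resurgent sodium current in Purkinje cells, read 5.83, 5.84 and 5.89 in the tumours, 6.44, 7.00 and 6.54 in Sufu KO and 7.00, 7.30 and 7.10 in wildtype. The tumours stood apart from both other groups, whereas Sufu KO replicate 2 was level with the lowest wildtype array. Scn4b was 2.43-fold lower in the tumours than in wildtype (adjusted p = 3.95e-06) and 1.75-fold lower than in Sufu KO (adjusted p = 0.000459). No detection call shows that its tumour signal was above background, so these folds may be understated. In Sufu KO against wildtype it was called (log2 difference -0.47, adjusted p = 0.0166), but not after removal of Sufu KO replicate 1 (adjusted p = 0.0625), Sufu KO replicate 3 (adjusted p = 0.0558) or wildtype replicate 2 (adjusted p = 0.0762).

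Scn3b behaved unlike the other beta genes. Its product is the beta subunit most abundant in the embryonic brain. It read 8.73, 8.56 and 8.81 in the tumours, 9.24, 9.27 and 9.32 in Sufu KO and 9.13, 8.80 and 8.99 in wildtype. Sufu KO was the highest group, and the tumours and wildtype touched at 8.81 and 8.80. Scn3b was 1.49-fold lower in the tumours than in Sufu KO (adjusted p = 0.000476), which no alternative setting ended. Against wildtype it was called higher in Sufu KO (0.30, adjusted p = 0.0278) and lower in the tumours (-0.27, adjusted p = 0.0264), but both calls ended when certain arrays were left out. The first ended without Sufu KO replicate 2 or 3 or wildtype replicate 2 or 3 (adjusted p from 0.0634 to 0.125). It also ended with the Xist level as a covariate in the fit (0.26, adjusted p = 0.104). The second ended without tumour replicate 1 or 2 or wildtype replicate 1 or 3 (adjusted p from 0.0523 to 0.125).

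**Figure D3:**
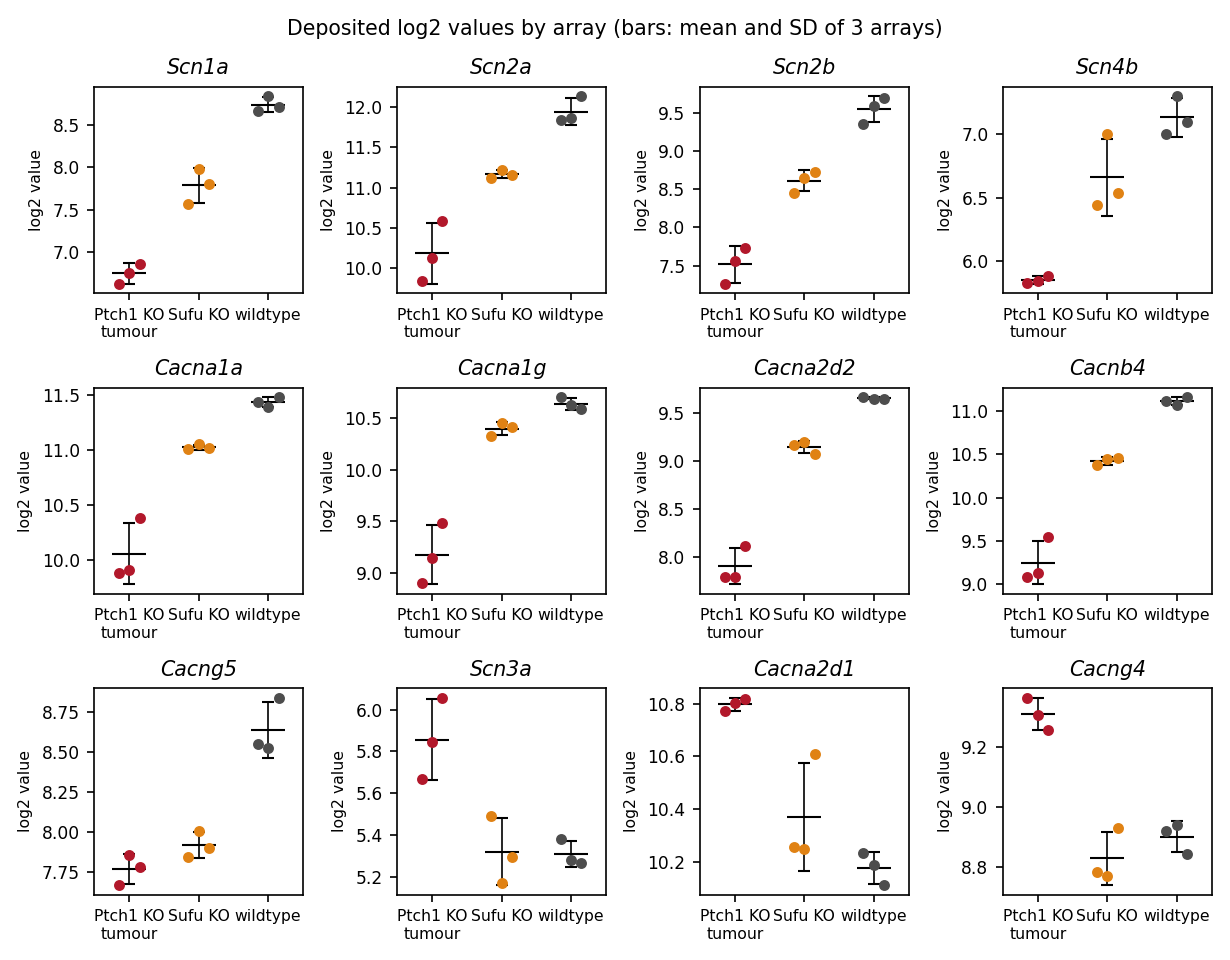
Deposited log2 values of 12 channel subunit genes on each array (points) with the mean and SD of 3 arrays, for Ptch1 KO tumours, Sufu KO and wildtype cerebellum; each panel has its own axis range. Scn1a, Scn2a, Scn2b, Cacna1a, Cacna1g, Cacna2d2 and Cacnb4 are lowest in the tumours, intermediate in Sufu KO and highest in wildtype with no overlap, Cacng5 is low in both mutants, and Scn3a, Cacna2d1 and Cacng4 are highest in the tumours.

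Of the P/Q-, N- and R-type pore genes, the P/Q-type gene fell most. Cacna1a encodes Cav2.1, the P/Q-type channel that triggers transmitter release and carries most calcium current of Purkinje cells. It read 9.88, 9.91 and 10.38 in the tumours, 11.01, 11.05 and 11.02 in Sufu KO and 11.44, 11.39 and 11.49 in wildtype. The order was stepwise without overlap, and tumour replicate 3 was the highest of its group. Cacna1a was 2.61-fold lower in the tumours than in wildtype (log2 difference -1.38 ± 0.11, SE, adjusted p = 7.09e-07) and 1.96-fold lower than in Sufu KO (adjusted p = 6.02e-05). Its 1.33-fold fall in Sufu KO against wildtype (adjusted p = 0.0169) was not called without wildtype replicate 3 (adjusted p = 0.0585).

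Cacna1e, the R-type pore gene, read 10.27, 10.19 and 10.63 in the tumours, 11.06, 11.00 and 10.96 in Sufu KO and 11.04, 11.03 and 11.03 in wildtype. Only the tumours were low, and Sufu KO overlapped wildtype. The tumours were 1.59-fold below wildtype (adjusted p = 0.000118) and 1.56-fold below Sufu KO (adjusted p = 0.000402), and the difference of Sufu KO from wildtype was -0.02 (95% confidence interval -0.24 to 0.20).

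Cacna1b, the N-type pore gene, is used at many developing synapses before the P/Q type takes over. It averaged 9.76 ± 0.18 in the tumours, 10.10 ± 0.06 in Sufu KO and 9.84 ± 0.02 in wildtype (SD, n = 3 each). It was not called in the tumours against wildtype (-0.08, adjusted p = 0.517). The tumours were lower than Sufu KO by 0.34 log2 units in size (adjusted p = 0.0107), a call that ended without Sufu KO replicate 2 (adjusted p = 0.0519). Sufu KO was called above wildtype (0.26, adjusted p = 0.0468), and that call ended under 10 of 18 alternatives (adjusted p from 0.0517 to 0.247), among them the loss of tumour replicate 1 or of any Sufu KO or wildtype array.

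T-type channels open near the resting potential and support rebound firing. Cacna1g (Cav3.1), strong in Purkinje and deep nuclear neurons, read 8.91, 9.15 and 9.48 in the tumours, 10.33, 10.45 and 10.41 in Sufu KO and 10.70, 10.62 and 10.59 in wildtype. Its large step was between the tumours and the rest. The tumours were 2.74-fold below wildtype (log2 difference -1.46 ± 0.12, SE, adjusted p = 6.55e-07) and 2.33-fold below Sufu KO (adjusted p = 2.07e-05). Sufu KO against wildtype gave -0.24 (adjusted p = 0.163), without overlap of the arrays.

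Cacna1i (Cav3.3) read 7.06, 7.29 and 7.47 in the tumours, 8.07, 8.07 and 8.09 in Sufu KO and 8.55, 8.56 and 8.68 in wildtype. Here both steps were clear. The fall was 2.50-fold in the tumours against wildtype (adjusted p = 2.55e-07), 1.43-fold in Sufu KO against wildtype (adjusted p = 0.00160) and 1.75-fold in the tumours against Sufu KO (adjusted p = 6.61e-05). Cacna1h (Cav3.2) was not called in any comparison.

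L-type channels couple firing to gene expression. Cacna1d (Cav1.3) read 8.48, 8.59 and 8.85 in the tumours, 9.29, 9.32 and 9.35 in Sufu KO and 9.60, 9.53 and 9.58 in wildtype. The steps did not overlap. Cacna1d was 1.91-fold lower in the tumours than in wildtype (adjusted p = 2.42e-06) and 1.60-fold lower than in Sufu KO (adjusted p = 0.000123). Sufu KO differed from wildtype by -0.25 (adjusted p = 0.0536).

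Cacna1c (Cav1.2), which vascular smooth muscle also expresses strongly, read 9.05, 8.98 and 9.33 in the tumours, 9.61, 9.71 and 9.64 in Sufu KO and 9.51, 9.41 and 9.37 in wildtype. Sufu KO stood highest and the tumours lowest. The tumours were 1.45-fold below Sufu KO (adjusted p = 0.000754). Their difference from wildtype (-0.31, adjusted p = 0.0125) was not called without tumour replicate 1 (adjusted p = 0.0513), tumour replicate 2 (adjusted p = 0.0641) or wildtype replicate 1 (adjusted p = 0.0550). Cacna1s, the skeletal muscle form, and Cacna1f, the retinal form, were not called in any comparison.

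The alpha2delta genes moved apart. Cacna2d2, the form that pairs with the P/Q type in Purkinje cells, read 7.80, 7.79 and 8.12 in the tumours, 9.17, 9.19 and 9.07 in Sufu KO and 9.66, 9.64 and 9.64 in wildtype. It fell 3.36-fold in the tumours against wildtype (log2 difference -1.75 ± 0.09, SE, adjusted p = 2.48e-08). Sufu KO was 1.42-fold below wildtype (adjusted p = 0.00127) and the tumours 2.36-fold below Sufu KO (adjusted p = 3.03e-06).

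Cacna2d1, a widely used form and a binding site of gabapentin, read 10.77, 10.80 and 10.82 in the tumours, 10.25, 10.25 and 10.61 in Sufu KO and 10.23, 10.19 and 10.11 in wildtype. The tumours were highest, and Sufu KO replicate 3 stood above its group. It rose 1.54-fold in the tumours against wildtype (log2 difference 0.62 ± 0.09, SE, adjusted p = 0.000114) and 1.35-fold against Sufu KO (adjusted p = 0.00368). In Sufu KO against wildtype its brighter probe set was not called (0.19, adjusted p = 0.155), while its other probe set was called higher (0.54, adjusted p = 0.000252 over all single-gene probe sets).

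Within each array, the log2 value of Cacna2d1 minus that of Cacna2d2 was 2.97, 3.01 and 2.70 in the tumours, 1.09, 1.05 and 1.54 in Sufu KO and 0.57, 0.54 and 0.47 in wildtype. Probe sets of different genes are not on a common scale, so only the change of this number between groups can be read. It widened in both mutants without overlap of any groups, and most in the tumours. The genes moved in opposite directions in the tumours, so the widening there follows from the differences above and is no separate test. In Sufu KO against wildtype, the fall of Cacna2d2 was called and the rise of this Cacna2d1 probe set was not.

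Cacna2d3 read 8.91, 9.13 and 9.29 in the tumours, 9.93, 10.09 and 10.09 in Sufu KO and 9.91, 9.84 and 9.92 in wildtype. Only the tumours were low. The fall was 1.72-fold against wildtype (adjusted p = 1.69e-05) and 1.90-fold against Sufu KO (adjusted p = 2.71e-05), and Sufu KO differed from wildtype by 0.15 (adjusted p = 0.294). Cacna2d4, known from the retina, was not called.

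Among the beta genes, Cacnb4 fell most. It encodes the main beta subunit of cerebellar P/Q channels, and read 9.08, 9.13 and 9.54 in the tumours, 10.37, 10.44 and 10.46 in Sufu KO and 11.11, 11.07 and 11.16 in wildtype. Each group was clear of the next. Cacnb4 was 3.65-fold lower in the tumours than in wildtype (log2 difference -1.87 ± 0.11, SE, adjusted p = 5.10e-08), 1.61-fold lower in Sufu KO than in wildtype (adjusted p = 0.000521) and 2.26-fold lower in the tumours than in Sufu KO (adjusted p = 1.28e-05). Cacnb1 averaged 7.74 ± 0.01 in the tumours, 8.01 ± 0.05 in Sufu KO and 7.86 ± 0.04 in wildtype (SD, n = 3 each). It was called only between the mutants (-0.27, adjusted p = 0.00474), and Cacnb2 was not called.

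The gamma and TARP genes followed other orders. Cacng5, a type II TARP, read 7.67, 7.85 and 7.78 in the tumours, 7.84, 8.01 and 7.90 in Sufu KO and 8.55, 8.52 and 8.84 in wildtype. Both mutants were low and overlapped each other. It fell 1.83-fold in the tumours (adjusted p = 6.83e-06) and 1.65-fold in Sufu KO (adjusted p = 0.000161), each against wildtype. The log2 difference between the mutants was -0.15 (95% confidence interval -0.35 to 0.05, adjusted p = 0.269).

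Cacng3, a type I TARP, read 6.42, 6.63 and 6.14 in the tumours, 6.34, 6.69 and 6.43 in Sufu KO and 7.12, 6.91 and 7.06 in wildtype. The mutants overlapped and both lay under wildtype. The tumours were 1.55-fold (adjusted p = 0.000904) and Sufu KO 1.46-fold (adjusted p = 0.00624) below wildtype, and the mutants differed by -0.09 (95% confidence interval -0.36 to 0.18). Cacng2, which encodes stargazin, the TARP that brings AMPA receptors to granule cell synapses, was lower by 0.26 log2 units in size in the tumours (adjusted p = 0.00699) and 0.24 in Sufu KO (adjusted p = 0.0244), each against wildtype. The Sufu KO difference was not called with removal of Sufu KO replicate 3 (adjusted p = 0.0781), wildtype replicate 1 (adjusted p = 0.0883) or wildtype replicate 2 (adjusted p = 0.0759). For Cacng2 the mutants differed by -0.03 (95% confidence interval -0.18 to 0.12).

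Cacng7 and Cacng8 are neighbours on chromosome 7 and fell in steps. Cacng7, a type II TARP, read 9.44, 9.51 and 9.67 in the tumours, 9.95, 9.91 and 9.85 in Sufu KO and 10.30, 10.28 and 10.37 in wildtype. Cacng8, a type I TARP, read 7.37, 7.58 and 7.73 in the tumours, 7.86, 7.92 and 8.00 in Sufu KO and 8.10, 8.10 and 8.17 in wildtype. Neither gene had overlapping groups. The tumours were below wildtype by 1.71-fold for Cacng7 (adjusted p = 2.63e-06) and 1.48-fold for Cacng8 (adjusted p = 0.000169). Sufu KO was 1.33-fold below wildtype for Cacng7 (adjusted p = 0.00153), and -0.19 for Cacng8 was not called (adjusted p = 0.137).

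Cacng4, a type I TARP known from progenitors, glia and young neurons, was the TARP gene that rose. It read 9.37, 9.31 and 9.26 in the tumours, 8.78, 8.77 and 8.93 in Sufu KO and 8.92, 8.94 and 8.84 in wildtype. The tumours stood clear of overlapping Sufu KO and wildtype arrays. The rise was 1.33-fold against wildtype (adjusted p = 0.000307) and 1.40-fold against Sufu KO (adjusted p = 0.000245). Cacng4 lies between Cacng1 and Cacng5 on chromosome 11, of which Cacng5 fell and Cacng1, the skeletal muscle gamma subunit, was not called.

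**Figure D4:**
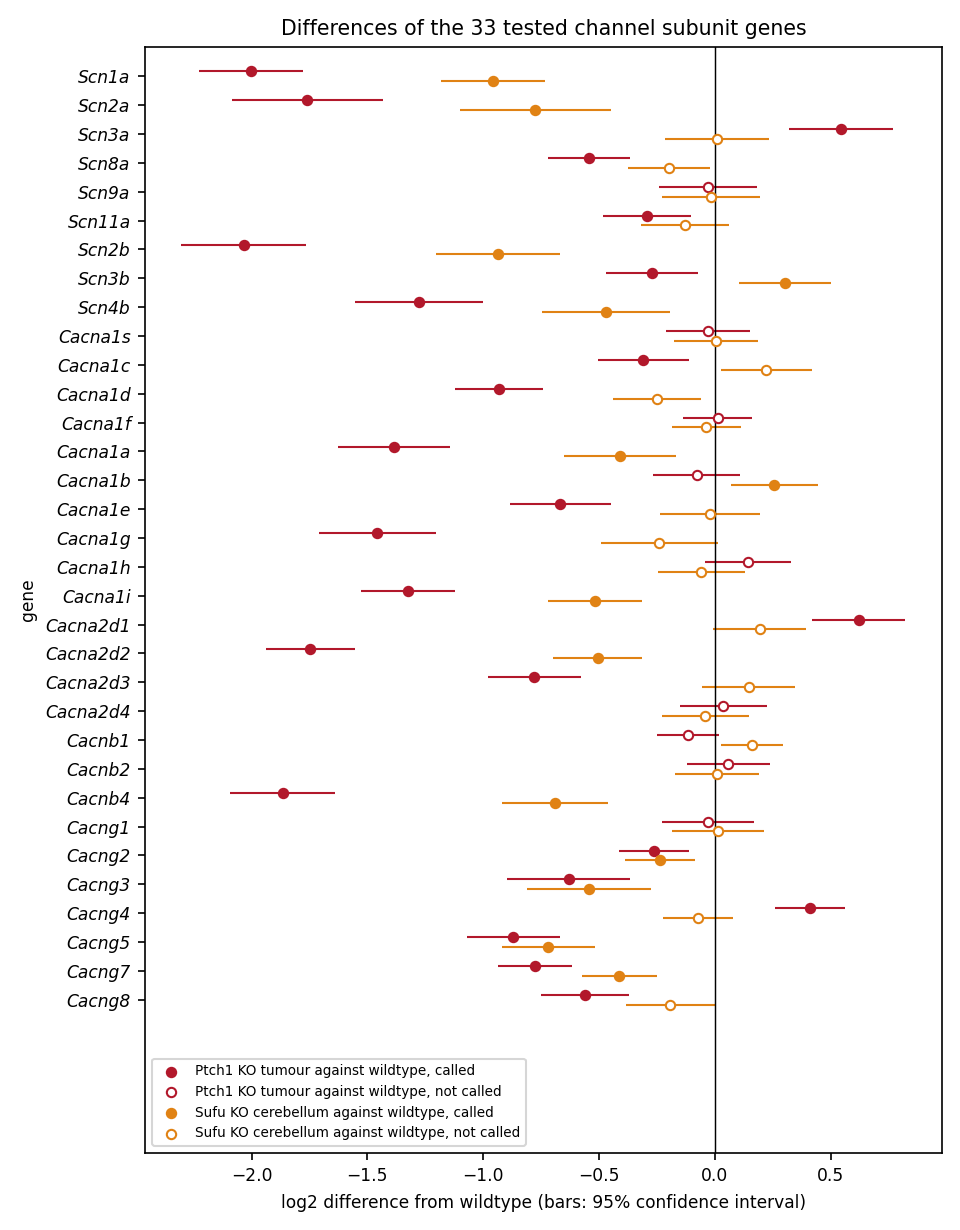
Log2 difference from wildtype (x axis) of the 33 tested genes (y axis, by role) in Ptch1 KO tumours (red) and Sufu KO cerebellum (orange), with 95% confidence intervals; filled points have an adjusted p under 0.05. Both sets of differences use the same wildtype arrays. Scn2b lies at -2.03 in the tumours and -0.94 in Sufu KO, and Cacna2d1, Scn3a and Cacng4 lie right of 0 in the tumours.

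Read across the groups, 12 of the 33 tested members were stepwise, with all tumour arrays under all Sufu KO arrays and these under all wildtype arrays, an order held by 11.1% of all tested genes. They were Scn1a, Scn2a, Scn8a, Scn2b, Cacna1a, Cacna1d, Cacna1g, Cacna1i, Cacna2d2, Cacnb4, Cacng7 and Cacng8. The reverse order was held by 1 member, Cacna2d1, and by 8.60% of all genes. Cacna1a, Cacnb4, Cacna2d2 and Cacng2, grouped here after their values were seen, are the genes behind the mouse mutants tottering, lethargic, ducky and stargazer, which share ataxia and absence seizures. All 4 were called lower in the tumours against wildtype, as were 24.7% of all genes, and all 4 in Sufu KO against wildtype, as were 12.4% of all genes. The Sufu KO calls of Cacna1a and Cacng2 ended under 1 and 3 alternatives. Against Sufu KO, 3 of 4 were lower in the tumours, with Cacng2 the exception, as were 17.5% of all genes. Because the grouping was made with these values known, these counts are no test of the 4 genes as a set.

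The 7 members that were not called in any comparison, Cacna1f, Cacna1h, Cacna1s, Cacna2d4, Cacnb2, Cacng1 and Scn9a, read between 5.38 and 6.97 on all arrays. The values carry no detection calls, so for genes this dim a signal cannot be told from background, and a difference may be understated.

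Partner genes were counted beside the channels. Of 27 tested partners, 21 were lower and 0 higher in the tumours against wildtype, 12 lower and 2 higher in Sufu KO against wildtype, and 18 lower and 0 higher in the tumours against Sufu KO. Over all genes, the shares called lower and higher were 24.7% and 22.1%, 12.4% and 13%, and 17.5% and 12.2% in these comparisons. By role, the lower calls in the tumours against wildtype were 8 of 9 sodium channel and axon initial segment partners, 7 of 10 calcium channel partners, 4 of 5 intracellular release channels and 2 of 3 leak channel genes. In Sufu KO against wildtype they were 3, 6, 1 and 2 in the same order of roles. Fgf12, Fgf14 and Fgf11, fibroblast growth factor homologous factors that bind the tail of sodium channels, were 2.70-fold, 2.38-fold and 2.24-fold lower in the tumours than in wildtype (adjusted p = 1.76e-07, 6.39e-06 and 1.83e-07). Their relative Fgf13, also a microtubule-binding protein of young neurons, was not called in the tumours (0.16, adjusted p = 0.109) and was called higher in Sufu KO (0.25, adjusted p = 0.0303).

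At the axon initial segment, where sodium channels are anchored, Nfasc (neurofascin) was 2.32-fold lower in the tumours than in wildtype (adjusted p = 1.91e-06) and Sptbn4 (beta-IV spectrin) 1.64-fold lower (adjusted p = 1.36e-05). Neither was called in Sufu KO against wildtype (-0.32, adjusted p = 0.0554, and -0.09, adjusted p = 0.505). Ank3 and Nrcam, from the same list, were only 1.16-fold and 1.23-fold lower in the tumours (adjusted p = 0.0274 and 0.00142). In Sufu KO they were not called. Rims1, which tethers calcium channels at release sites, was 2.44-fold lower in the tumours (adjusted p = 7.85e-07) and 1.39-fold lower in Sufu KO (adjusted p = 0.00518), each against wildtype. Unc80, a subunit of the sodium leak channel complex, was 2.23-fold lower in the tumours (adjusted p = 4.36e-07) and 1.33-fold lower in Sufu KO (adjusted p = 0.00437). Unc79 of this complex was 1.18-fold lower in the tumours (adjusted p = 0.00848) and not called in Sufu KO. Nalcn was not called in the tumours (-0.17, adjusted p = 0.0743) and was lower in Sufu KO (-0.24, adjusted p = 0.030). Of the release channels of internal calcium stores, Ryr1 was 1.99-fold lower in the tumours against wildtype (adjusted p = 1.55e-07). In Sufu KO it was 1.31-fold lower (adjusted p = 0.00108). Ryr2 was 1.88-fold lower in the tumours against wildtype (adjusted p = 5.69e-05), with 0.01 in Sufu KO (adjusted p = 0.960).

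Markers of cell types moved in the same comparisons. In bulk tissue, fewer cells of a type and less RNA per cell cannot be told apart. Mature granule neuron markers were lower in the tumours than in wildtype for 9 of 10 genes, with a median log2 difference of -1.84, and in Sufu KO for 7 of 10, with -0.67. Their summed signal, as log2, ran from 13.31 to 13.78 in the tumours, 14.24 to 14.34 in Sufu KO and 14.73 to 14.84 in wildtype. Purkinje cell markers were lower for 9 of 9 genes in the tumours (median -1.87) and for 9 of 9 in Sufu KO (median -0.68). Their summed signal ran from 11.91 to 12.13 in the tumours, 13.17 to 13.26 in Sufu KO and 13.81 to 13.91 in wildtype. The Purkinje cell list holds Gad1 and Gad2, which GABAergic interneurons also express, so it and the interneuron list are not independent.

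GABAergic interneuron markers were lower for 7 of 7 genes in the tumours (median -1.24) and 6 of 7 in Sufu KO (median -0.85), and their sums ran from 10.37 to 10.43, 11.07 to 11.22 and 12.01 to 12.10 in tumours, Sufu KO and wildtype. Granule neuron progenitor markers went the other way, higher for 8 of 8 genes in the tumours (median 2.65) and 7 of 8 in Sufu KO (median 1.61), with sums of 13.16 to 13.51 in the tumours, 12.60 to 12.69 in Sufu KO and 10.76 to 11.07 in wildtype. Bergmann glia and astrocyte markers were lower for 6 of 8 genes in each mutant against wildtype (medians -0.70 in the tumours and -0.69 in Sufu KO). Markers of endothelium, pericytes and smooth muscle, where Cacna1c is also expressed, were lower for 7 of 8 genes in the tumours (median -0.35) and 4 of 8 in Sufu KO (median -0.22). Oligodendrocyte lineage markers were lower for 5 and higher for 2 of 8 genes in the tumours (median -0.80). In Sufu KO they were lower for 6 and higher for 1 (median -0.51). Their sums were 11.98 to 12.02 in the tumours, 12.38 to 12.73 in Sufu KO and 12.92 to 13.17 in wildtype. The genes of this list went opposite ways. Against wildtype, Mag (-2.60), Mog (-2.34), Mal (-2.30), Mbp (-1.29) and Sox10 (-0.31) were lower in the tumours. Pdgfra (2.36) and Cspg4 (0.34) were higher there, so the sum does not speak for every gene of the list. The summed signals of the granule neuron, Purkinje cell, interneuron and oligodendrocyte lists were all lowest in the tumours and highest in wildtype without overlap. This is the same order as that of the 12 stepwise members, but not every list held it. For Bergmann glia and astrocytes, and for endothelium, pericytes and smooth muscle, the sums were highest in wildtype but the mutants overlapped. The highest tumour and lowest Sufu KO sums of these lists were 13.67 and 13.65, and 10.86 and 10.85. The progenitor and microglia sums ran the other way, highest in the tumours and lowest in wildtype without overlap. Microglia markers were higher for 3 of 6 genes in the tumours (median 0.38) and 1 of 6 in Sufu KO (median 0.14). No marker list had a detection call, so none of its genes can be called absent. The part of these cell type shifts in the channel differences was not tested.

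**Figure D5:**
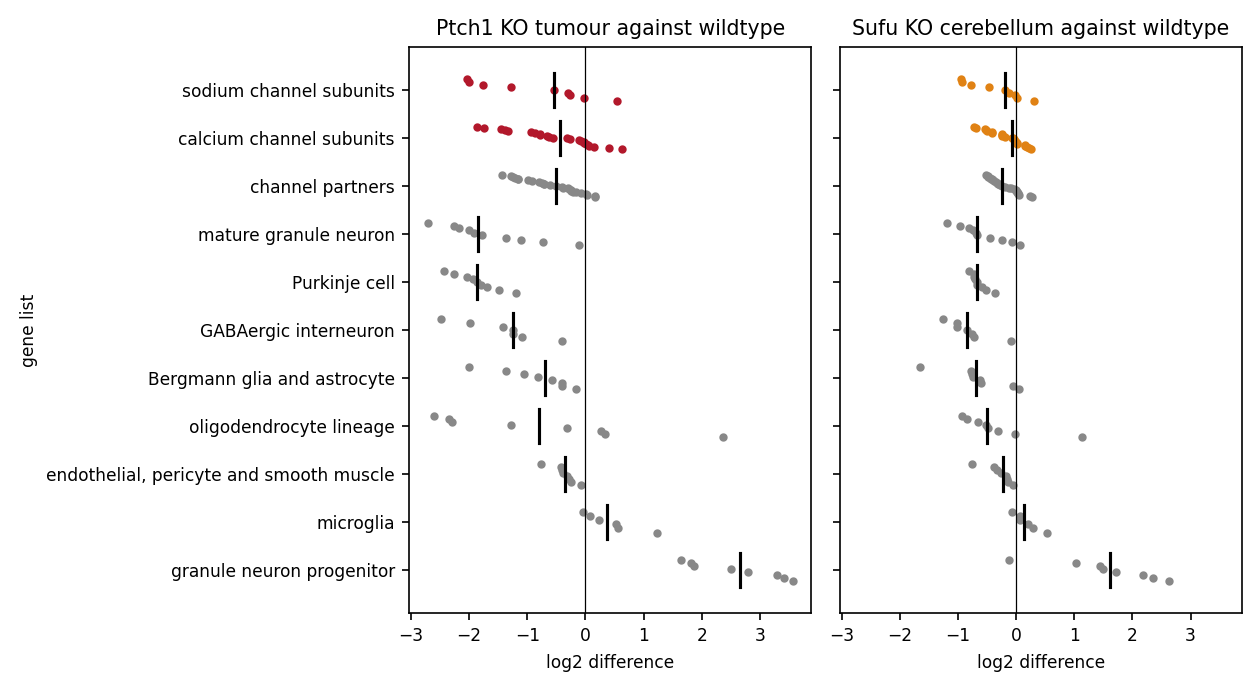
Log2 difference from wildtype (x axis) of each tested gene of the channel subunits, their partners and the cell type marker lists (y axis), in Ptch1 KO tumours (left) and Sufu KO cerebellum (right); points are genes and black bars list medians. Both panels use the same wildtype arrays. In the tumours the medians are -0.54 for sodium channel genes, -0.44 for calcium channel genes and -0.50 for partners. They are -1.84 for mature granule neuron, -1.87 for Purkinje cell and -1.24 for GABAergic interneuron markers. Bergmann glia and astrocyte markers have -0.70, the oligodendrocyte lineage -0.80, and endothelium, pericytes and smooth muscle -0.35. Microglia and granule neuron progenitor markers have 0.38 and 2.65.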

How the data were processed

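RNA was measured on 9 Affymetrix Mouse Gene 1.0 ST arrays. The authors deposited log2 expression values for 35556 probe sets; the log2 scale was recognised from the values, and the background correction, normalization and summary behind it are, for the sources used here, not given. Groups and replicate numbers come from the sample labels. Probe sets were named with the platform's annotation table, updated by gene identifier through RefSeq (21789 with 1 gene, 1621 with several, 12146 not listed). The probe set with the highest mean stood for a gene. Genes that exceeded the 25th percentile of an array on 3 or more arrays entered a fit in limma 3.58.1 (R 4.3.3): 1 mean per group over all 9 arrays, empirical Bayes variances, 2-sided tests, Benjamini-Hochberg adjustment over 16323 genes per comparison, threshold 0.05. SE is the moderated standard error. The fit was tested on simulated data. Depth is not defined for arrays; their number limits precision. The comparisons with wildtype share the wildtype arrays.

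The channel genes, partner lists and marker lists were chosen with earlier results of these data known. Members called in any comparison with a log2 difference of at least 0.5 and no overlap are given on every array; Cacng4 was added after its values were seen. Alternatives were other filters, normalizations, priors, sample sets, probe sets, covariates and leaving out each array. Probe sets of several genes entered no test of members.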

Additional observations from a re-analysis of the deposited data

How the results depend on the processing

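Under 9 alternative settings and 9 fits that each left out 1 array, the members called in the tumours against wildtype numbered 21 to 24 without 1 array and 22 to 24 otherwise. Those in the tumours against Sufu KO numbered 21 to 22, and those in Sufu KO against wildtype 10 to 17 without 1 array and 13 to 17 otherwise. No call changed direction. Calls kept under every alternative that tested the gene were 21 of 24 in the tumours against wildtype, 21 of 22 between the mutants and 9 of 14 in Sufu KO against wildtype. Scn3a and Scn11a did not pass the filter at the array median, so their calls were tried under 17 of the 18. The number called higher in Sufu KO against wildtype, 2, was the least stable. It was 1 with no filter on dim genes, 1 with the replicate block and 1 with the Xist level as a covariate. With that covariate the calls of both Cacna1b (adjusted p = 0.247) and Scn3b (adjusted p = 0.104) ended. The 1 gene then called higher was Cacna2d1 (0.31, adjusted p = 0.0341). The number was 0 to 3 when 1 array was left out. It was 0 without Sufu KO replicate 2, Sufu KO replicate 3, wildtype replicate 2 or wildtype replicate 3. It was 1 without tumour replicate 1, Sufu KO replicate 1 or wildtype replicate 1. The cause of these changes was not tested. Replicate numbers do not pair the samples: deviations of same-numbered samples from their group means correlated at -0.31 to 0.35, against -0.35 to 0.40 for other pairs. With the block, the Cacna1b call in Sufu KO against wildtype ended (adjusted p = 0.0692). Without tumour replicate 3, or with only the compared groups in the fit, Cacna1g was called lower in Sufu KO (adjusted p = 0.0371 and 0.0270), as were Cacna1d (0.0104 and 0.0143) and, higher, Cacna1c (0.0267 and 0.0386). The number of arrays, and for dim genes the lack of detection calls, limits what can be seen.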

Other observations

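Tumour replicate 3 gave the highest value among the tumours for 18 of the 21 members called lower in the tumours against wildtype. Across all tested genes this array also stood nearest to wildtype, as given above. It was below every wildtype array for 20 of the 21, which follows largely from their being called lower on these same arrays. Of the 7644 genes called in this comparison in either direction, 7529 had groups that did not overlap. The share of all genes with tumour replicate 3 highest was not computed. The median SD of the tested members was 0.13 in the tumours, 0.07 in Sufu KO and 0.06 in wildtype on the log2 scale.

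Some probe sets are annotated to several sodium channel genes and entered no count above. A probe set listed for Scn9a and Scn3a averaged 8.25 in the tumours, 9.16 in Sufu KO and 10.02 in wildtype, a log2 difference of -1.77 in the tumours against wildtype (limma adjusted p = 0.000105 over all probe sets). This is opposite in sign to the single-gene probe set of Scn3a (0.54), while the single-gene probe sets of Scn9a read -0.03 (the brighter) and 0.05. A probe set listed for Scn2a, Scn9a and Scn3a averaged 6.18 in the tumours, 6.67 in Sufu KO and 7.12 in wildtype (tumours against wildtype -0.94, adjusted p = 0.00665). A probe set listed for Scn3a and Scn1a averaged 7.08, 7.03 and 7.18 in the same order and was not called (-0.10, adjusted p = 0.401), although Scn1a itself differed by -2.00. The -1.77 of the probe set listed for Scn9a and Scn3a lay within the range of the 14 Scn2a probe sets, -2.16 to -1.68. Which gene's RNA these shared probe sets read was not tested.

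Within each array, the log2 value of Cacng4 minus that of its chromosomal neighbour Cacng5 was 1.70, 1.46 and 1.48 in the tumours, 0.94, 0.76 and 1.03 in Sufu KO and 0.37, 0.41 and 0.00 in wildtype. The groups did not overlap, and the difference was widest in the tumours. There Cacng4 rose and Cacng5 fell, so the widening follows from those differences and is no separate test. In Sufu KO against wildtype, Cacng5 was called lower and Cacng4 was not called.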
